A study of Mus musculus with 10 samples.

Results

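Liver metastases labelled 25, 38 and 72 were compared with the primary pancreatic tumours carrying the same 3 numbers. The 6 libraries were chosen by their labels out of 10 RNA-seq libraries in the series, and 4 genes that stood out in this comparison (Atf3, Cldn6, Rgs16 and Ifitm1) were singled out from its measured values. These 4 are therefore described with no test of their own. The model was Ink4.1syn_Luc, in which the pancreatic cancer cell line Ink4a.1 is injected orthotopically, that is, into the pancreas, of mice labelled with the strain FVB and later seeds the liver. Per the labels, the metastasis libraries were the lines Met25, Met38 and Met72, and the primary libraries were the line Ink4a with a tumour number. All samples were untreated and were labelled as cell lines grown in dishes before RNA was extracted. The labels give no age, no sex and no full genotype, and they do not say that a shared number is a shared mouse. The series' design text speaks of metastasis lines from 4 mice, whereas the labels carry 5 numbers. The other 4 libraries, metastases 35 and 36 and primaries 35 and 36, are used here as levels beside the results.

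Pancreatic ductal adenocarcinoma most often spreads to the liver. A tumour piece holds cancer cells, fibroblasts, blood vessels and immune cells, and a piece taken from the liver or pancreas can also hold hepatocytes, acinar cells or islets, so bulk RNA from it averages them. Atf3 encodes a basic leucine zipper transcription factor that is induced by many stresses and acts in the integrated stress response below Atf4. Cldn6 encodes a claudin, a tight junction protein of embryonic and stem-like epithelium. Rgs16 encodes a protein that speeds GTP hydrolysis by G protein alpha subunits and so shortens receptor signalling, and Ifitm1 encodes an interferon-induced membrane protein that restricts virus entry.

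The values are FPKM, fragment counts scaled for transcript length and library size, so that levels may be set side by side between genes. The 6 libraries had an estimated depth of 15800000 fragments in metastasis 25, the lowest, and of up to 30400000 fragments in the other 5, and their FPKM sums ran from 563509 to 644314 except for metastasis 25 at 939415. Before any comparison, 3 of the 10 libraries stood apart. Metastasis 25, metastasis 72 and primary 25 had Rps21, a ribosomal protein gene, at 3272, 2223 and 2104 FPKM, whereas the other 7 libraries had 4.69 to 7.93 FPKM. The same 3 libraries had Rpl38, another ribosomal protein gene, at 404, 169 and 146 FPKM against at most 1.64 FPKM in the other 7. They listed the small RNA genes Mir719 and Snora68 at 0, where metastasis 38, primary 38 and primary 72 had Mir719 at 279, 202 and 322 FPKM. Atp5k, a subunit gene of ATP synthase, and its pseudogene Atp5k-ps2 traded places, with Atp5k at 381, 234 and 320 FPKM and Atp5k-ps2 at 3.74, 2.40 and 9.46 FPKM in the 3 libraries. In metastasis 38, primary 38 and primary 72, Atp5k had 12.2, 7.93 and 5.69 FPKM and Atp5k-ps2 had 256, 157 and 167 FPKM. These 3 libraries were picked by their own values, as those with Rps21 above 1000 FPKM, so Rps21 had to be high in them. With a gap of at least 8-fold on the FPKM + 1 scale, 7 genes had all 3 above the other 7, and 14 had them all below. By the labels, 0 genes separated the 3 metastases from the 3 primaries by that margin in either direction. The split by labels was not picked from the values and covers fewer libraries, so its count cannot be weighed against the others. The labels record no batch. Since 2 metastases but 1 primary belong to these 3 libraries, values within each set are given below beside the pooled ones: metastases 25 and 72 minus primary 25 (the first set), and metastasis 38 minus primaries 38 and 72 (the second set).

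**Figure D1:**
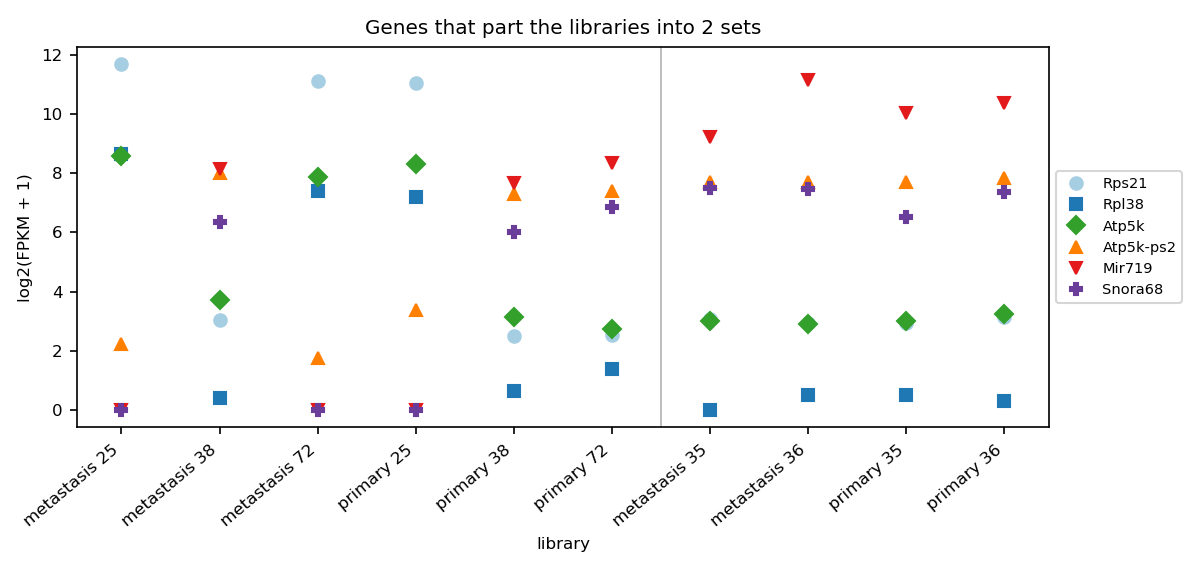
Level of 6 genes, as log2(FPKM + 1), in each of the 10 libraries, with the libraries of numbers 35 and 36 right of the grey line. Rps21, Rpl38 and Atp5k are high and Atp5k-ps2, Mir719 and Snora68 are low in metastasis 25, metastasis 72 and primary 25, and the reverse holds in the other 7 libraries.

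No gene was called between metastases and primaries. The test covered 13969 genes that reached 1 FPKM in 3 or more of the 6 libraries. On log2(FPKM + 1), limma (a linear model that shares its estimate of the spread across genes) called 0 genes higher and 0 lower at a Benjamini-Hochberg adjusted p under 0.05 (0% of those tested), and no adjusted p was smaller than 0.9993. Without adjustment, 54 higher genes (0.387%) and 77 lower genes (0.551%) had p under 0.05. The metastases all lay above the primaries for 264 genes (1.89%) and all lay below them for 290 genes (2.08%). The metastasis was higher than the primary of its own number in all 3 numbers for 1212 genes (8.68%) and lower for 1249 genes (8.94%). An exact permutation test of 3 against 3 cannot give a two-sided p below 0.1, so these separations are given as descriptions. None of the shares above exceeds what labels unrelated to the values would give. No source states that libraries of a group came from separate animals, and the tests then measure only the spread between these samples.

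Atf3 was higher in every metastasis than in every primary. It had 39.0, 20.9 and 19.2 FPKM in metastases 25, 38 and 72, against 6.62, 4.01 and 5.01 FPKM in primaries 25, 38 and 72. The lowest metastasis thus stood well above the highest primary, and the difference of the group means on the log2(FPKM + 1) scale was 2.09 ± 0.36 (SE, n = 3 each). Here and below, the SE is limma's, which draws on the spread of other genes and not only on that of the 6 values. Within numbers 25, 38 and 72 the differences were 2.39, 2.13 and 1.75. Within the sets of libraries they were 1.90 and 1.998, which are averages of the same 6 values. Both had to be positive, as for any gene whose metastases all lie above its primaries. In the 4 libraries of numbers 35 and 36 Atf3 had only 1.07 to 1.74 FPKM, below all 6 libraries. Atf3 lies on chromosome 1, within a deposited locus from 191170296 to 191218039 (GRCm38) that can be wider than the gene. An antisense gene model, Gm24748, overlaps Atf3. No source states whether strand was used, so reads of such a pair cannot be told apart. Macrophages also express Atf3. Of 15 macrophage markers, 11 were lower in the metastasis of number 25, whereas 14 were higher in that of number 38 and 12 in that of number 72. Metastasis 25 had the highest summed hepatocyte, neutrophil and erythroid markers of the 6 libraries, at 29745, 11745 and 29124 FPKM. It had the lowest summed T cell markers, at 2.85 FPKM. The part of macrophages or other host cells in the Atf3 values was not tested. In bulk samples, fewer cells of a type and less RNA per cell cannot be told apart either, here or in any result that follows.

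Cldn6 was lower in every metastasis than in every primary. It had 0.23, 0.63 and 4.43 FPKM in metastases 25, 38 and 72, against 10.2, 10.7 and 12.8 FPKM in primaries 25, 38 and 72. The primaries were close to each other, whereas the metastases spread widely, with metastasis 72 nearest to the primaries. The difference of the means was -2.46 ± 0.57 (SE, n = 3 each), and the differences within numbers 25, 38 and 72 were -3.19, -2.85 and -1.35. The values within the sets were -2.12 and -2.96. All 4 libraries of numbers 35 and 36 had more Cldn6 than any of the 6, at 24.2 to 61.7 FPKM, metastases included. Cldn6 lies on chromosome 17, from 23679365 to 23682446 (GRCm38).

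The stretch just before the start of transcription is shown for these genes because Atf3 and its relatives bind the cAMP response element (CRE), an 8-base palindrome, and because their windows hold a form of it close to the start, whereas those of Rgs16 and Ifitm1 hold 0 matches. The sequences are RefSeq's (GRCm38.p6), 250 bases ending at the base before the start, 5′ to 3′ on the gene's strand. Capitals mark a match to TNACGTCA on either strand, which includes the full element TGACGTCA. The Atf3 window is chr1:191183334-191183583 on the minus strand and the Cldn6 window is chr17:23679115-23679364 on the plus strand. The Atf3 window lies inside the deposited locus given above, so the start meant here is RefSeq's and not the far end of that locus. Which start these samples used was not tested.
Atf3: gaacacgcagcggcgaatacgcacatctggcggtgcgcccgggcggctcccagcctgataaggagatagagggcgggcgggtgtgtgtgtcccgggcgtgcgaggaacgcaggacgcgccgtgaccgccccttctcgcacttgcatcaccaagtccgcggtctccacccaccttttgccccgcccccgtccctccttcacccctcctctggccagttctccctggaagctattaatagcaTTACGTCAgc
Cldn6: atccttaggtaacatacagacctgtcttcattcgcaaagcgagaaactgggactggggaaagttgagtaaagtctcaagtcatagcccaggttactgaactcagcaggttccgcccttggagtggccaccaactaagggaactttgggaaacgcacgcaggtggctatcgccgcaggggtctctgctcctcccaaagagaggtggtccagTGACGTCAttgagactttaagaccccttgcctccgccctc
The match begins 10 bases before the start in Atf3 and 40 bases before it in Cldn6, which has the full element. Atf3 has 0 matches to the full element. Other motifs were searched in the same windows, and Rgs16 had 1 match to the letters CCAAT and Ifitm1 had 1 to TTTGAA. Both windows are shown because they match, so the shared match is no evidence of a link between the genes. Over all 32851 RefSeq windows of this length, 2.52% hold TNACGTCA and 1.55% hold TGACGTCA. A match describes letters in the window and says nothing of binding in these samples.

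Rgs16 was separated by a smaller margin. It had 44.4, 25.0 and 25.7 FPKM in metastases 25, 38 and 72, against 13.7, 12.6 and 17.7 FPKM in primaries 25, 38 and 72. Metastasis 25 was the highest, and the other two metastases were close to each other and nearest to primary 72. The difference of the means was 1.02 ± 0.32 (SE, n = 3 each), with 1.63, 0.94 and 0.51 within numbers 25, 38 and 72, and with 1.24 and 0.71 within the sets. In numbers 35 and 36 the values, 22.5 to 33.3 FPKM, lay above all 3 primaries. The antisense gene model Gm28513 overlaps Rgs16 on chromosome 1, where Rgs16 spans 153740349 to 153749324 (GRCm38).

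Ifitm1 did not separate the groups. It had 118, 252 and 486 FPKM in metastases 25, 38 and 72, against 1309, 1577 and 472 FPKM in primaries 25, 38 and 72. Metastasis 72 was level with primary 72, so the difference of the means, -2.02 ± 0.66 (SE, n = 3 each), came from numbers 25 and 38, at -3.47 and -2.64, with 0.04 in number 72. Without both libraries of number 72 it was -3.05, and without both of number 25 it was -1.30. Numbers 35 and 36 had 175 to 418 FPKM, below primaries 25 and 38. Ifitm1 lies on chromosome 7, from 140967221 to 140969825 (GRCm38), and the sources used here do not give how reads shared with its close relatives were assigned.

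**Figure D2:**
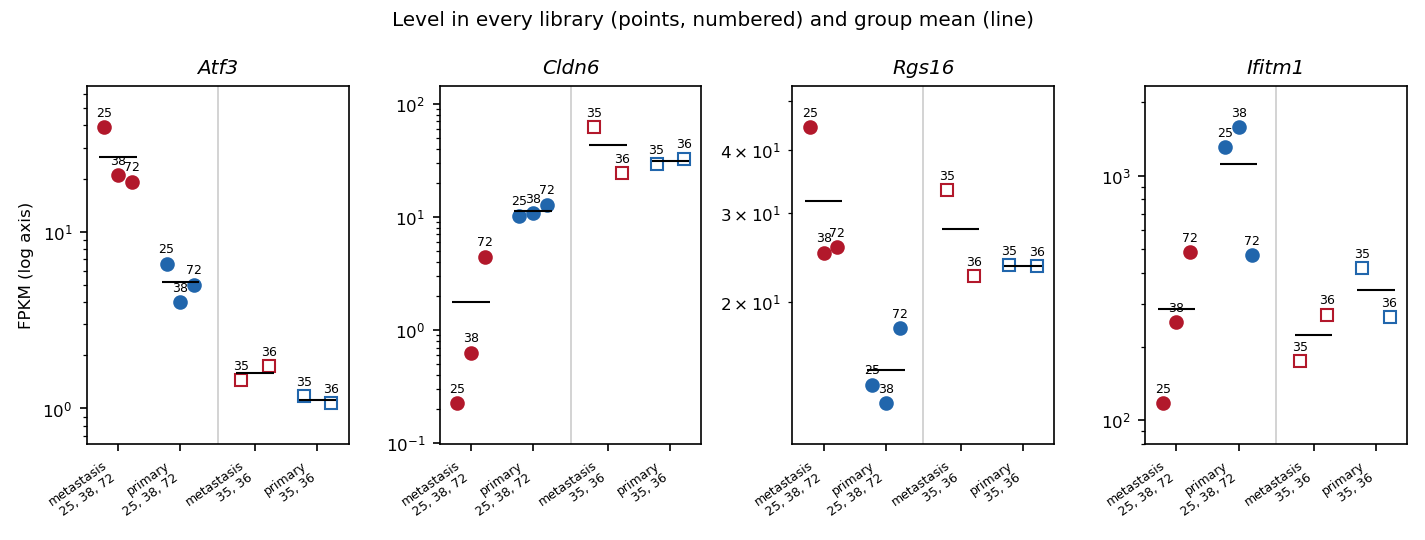
FPKM on a log axis of Atf3, Cldn6, Rgs16 and Ifitm1 in every library, metastases in red and primaries in blue, with the tumour number at each point and the group mean as a line; open squares are the libraries of numbers 35 and 36. The 3 metastases of numbers 25, 38 and 72 sit above their 3 primaries for Atf3 and Rgs16 and below them for Cldn6, whereas metastasis 72 and primary 72 overlap for Ifitm1.

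The relatives of these genes did not follow them as families (3 values of a group stand in the order 25, 38, 72). Of the 6 tested Ifitm genes, 1 had a higher and 5 a lower mean, and none separated the groups. Ifitm3, also an antiviral membrane protein, had 256, 1007 and 693 FPKM in the metastases, against 1234, 1612 and 564 FPKM in the primaries. It thus resembled Ifitm1 in that primaries 25 and 38 were the highest. Ifitm6, a myeloid member of the family, had 82.5 FPKM in metastasis 25, against at most 7.66 FPKM in the other 5 libraries. Of 12 tested claudin and tight junction genes, 7 had a higher and 5 a lower mean, the median difference was 0.02 (0.02 over all genes tested), and only Cldn6 lay below in all 3 metastases. Cldn4 had 3.58, 0.06 and 17.7 FPKM in the metastases, against 19.7, 4.33 and 0.40 FPKM in the primaries, so its differences within numbers pointed both ways. Cldn1 was likewise split, with 11.1, 3.85 and 0.26 FPKM in the metastases, against 0.06, 0.35 and 2.30 FPKM in the primaries. Of 11 tested Rgs genes, 7 had a higher and 4 a lower mean, and Rgs16 alone was separated. Rgs1 had 63.3, 18.7 and 16.2 FPKM in the metastases, against 18.7, 5.81 and 31.8 FPKM in the primaries, and was below 1 FPKM in all 4 libraries of numbers 35 and 36.

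Other genes of the integrated stress response were only partly like Atf3. Of 20 tested members, 14 had a higher and 6 a lower mean, where 7270 of all 13969 genes had a higher mean. The median difference was 0.23. With limma, 3 were higher at an unadjusted p under 0.05, where 0.387% of all genes were. Atf3 and Atf4 (2 members) lay above in all 3 metastases, where 1.89% of all genes did. Atf3 was singled out from these values, so its place in both counts was given in advance. Atf4, the central transcription factor of the pathway, had 282, 249.1 and 251 FPKM in the metastases, against 197, 189 and 194 FPKM in the primaries. Both groups were tight, and the difference of the means was 0.43 ± 0.24 (SE, n = 3 each). That SE is limma's and draws on the wider spread of other genes. Ddit3, which encodes the death-promoting factor CHOP, had 65.1, 40.9 and 82.1 FPKM in the metastases, against 42.2, 34.0 and 24.2 FPKM in the primaries. It was higher in the metastasis of every number, but metastasis 38 lay just below primary 25. Vldlr, a lipoprotein receptor gene, had 12.03, 4.50 and 9.75 FPKM in the metastases, against 2.62, 1.89 and 4.70 FPKM in the primaries. Asns, the asparagine synthetase that Atf4 drives, went both ways, with 6.27, 16.8 and 46.2 FPKM in the metastases, against 25.1, 8.29 and 18.2 FPKM in the primaries. Trib3 and Chac1 were split in the same manner as Asns, lower in the metastasis of number 25 and higher in those of numbers 38 and 72.

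The immediate early genes, which cells switch on within minutes of a stimulus or of handling, pointed different ways by number. Of 21 tested, 16 had a higher and 5 a lower mean, though 1 to 14 had a lower mean when libraries were left out, and the median difference was -0.52 in number 25, 0.05 in number 38 and 1.56 in number 72. Junb had 119, 54.8 and 190 FPKM in the metastases, against 220, 53.4 and 22.6 FPKM in the primaries. Egr1 had 42.6, 54.3 and 81.6 FPKM in the metastases, against 108, 43.5 and 12.1 FPKM in the primaries. For both genes primary 25 was the highest of the 6 libraries and primary 72 the lowest. Fos, the partner of Jun in the AP-1 dimer, had 20.5, 27.8 and 35.6 FPKM in the metastases, against 21.5, 7.60 and 9.04 FPKM in the primaries. It was below 1 FPKM in all 4 libraries of numbers 35 and 36. Atf3 itself, which is on this list too, was the one member above in all 3 metastases. Of the 21 genes, 7 were higher within the first set and 15 within the second, with Atf3 in both counts, as its separation required. Of all 13969 genes tested, 6896 and 7111 were.

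Cell cycle genes had lower means in the metastases as a list. All 27 tested members had a lower mean, with a median of -0.73 (0.02 over all genes tested). Of them, 12 lay below in all 3 metastases, where 2.08% of all genes did. Lower values in the metastasis of every number were seen for 17 of 27, where 8.94% of all genes had them. With limma, 8 were lower at an unadjusted p under 0.05, where 0.551% of all genes were. None was called, and a list chosen with these results known is no independent evidence of its direction. Within both sets of libraries 26 of 27 were lower, which the 12 separated ones had to be, where 20.2% of all genes tested were, with medians of -0.72 and -0.51. The summed FPKM of the list was 836, 873 and 400 in the metastases, against 1055, 1248 and 1380 in the primaries, and 2541 to 2853 in numbers 35 and 36. The summed level of the 15 macrophage markers was 4549, 5672 and 4627 FPKM in the metastases, against 4368, 3201 and 1676 FPKM in the primaries. In metastasis 25 most of it was Apoe, an apolipoprotein gene that hepatocytes express too, with 3586, 740 and 2268 FPKM in the metastases, against 1377, 566 and 773 FPKM in the primaries. The other 14 markers, summed after these values were seen, had 963, 4932 and 2359 FPKM in the metastases, against 2991, 2635 and 904 FPKM in the primaries, so that without Apoe the groups overlapped. C1qa, a complement gene, had 202, 802 and 475 FPKM in the metastases, against 672, 494 and 167 FPKM in the primaries. At least 13 of the 15 were detected at 1 FPKM or more in each of the 6 libraries, and Clec4f was listed at 0 in metastasis 38. The part of macrophages in the cell cycle values was not tested.

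Most of the separated members were DNA replication genes, and Mcm2, Mcm3, Mcm4, Mcm5, Mcm6 and Mcm7, the subunits of the replicative helicase, were all among them. Top2a, which encodes topoisomerase II alpha and untangles replicated DNA, had 52.4, 146 and 47.6 FPKM in the metastases, against 158, 253 and 184 FPKM in the primaries. Mcm3 had 33.3, 75.3 and 25.0 FPKM in the metastases, against 81.3, 89.2 and 125 FPKM in the primaries. In both genes metastasis 38 was the closest to the primaries. Rrm2, the regulated subunit of ribonucleotide reductase, had 13.7, 21.1 and 11.2 FPKM in the metastases, against 27.0, 29.8 and 55.0 FPKM in the primaries. Mcm2 was tight within groups, at 16.4, 17.9 and 16.6 FPKM in the metastases, against 29.2, 27.3 and 35.5 FPKM in the primaries. Its difference was -0.81 ± 0.24 (SE, n = 3 each), and its values within the sets were -0.79 and -0.76. For Rrm2 and Mcm2 primary 72 was the highest library. The mitotic kinase gene Cdk1 had 90.9, 70.4 and 43.1 FPKM in the metastases, against 119, 108 and 150 FPKM in the primaries.

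Several mitotic genes overlapped between the groups and pointed the other way in number 25. Mki67, the gene of the Ki-67 proliferation antigen, had 33.03, 26.3 and 8.47 FPKM in the metastases, against 20.7, 38.1 and 35.0 FPKM in the primaries. Ccnb1, the cyclin that takes cells into mitosis, had 21.8, 19.8 and 5.70 FPKM in the metastases, against 13.8, 27.7 and 43.8 FPKM in the primaries. Ccnb2 followed it, with 56.1, 22.1 and 9.01 FPKM in the metastases, against 32.0, 33.03 and 37.5 FPKM in the primaries. All 3 genes were thus higher in metastasis 25 than in primary 25 and far lower in metastasis 72 than in primary 72. The median of the 27 differences was -0.28 in number 25, -0.52 in number 38 and -1.50 in number 72. Without both libraries of number 72, 24 of the 27 still had a lower mean and the median was -0.35.

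**Figure D3:**
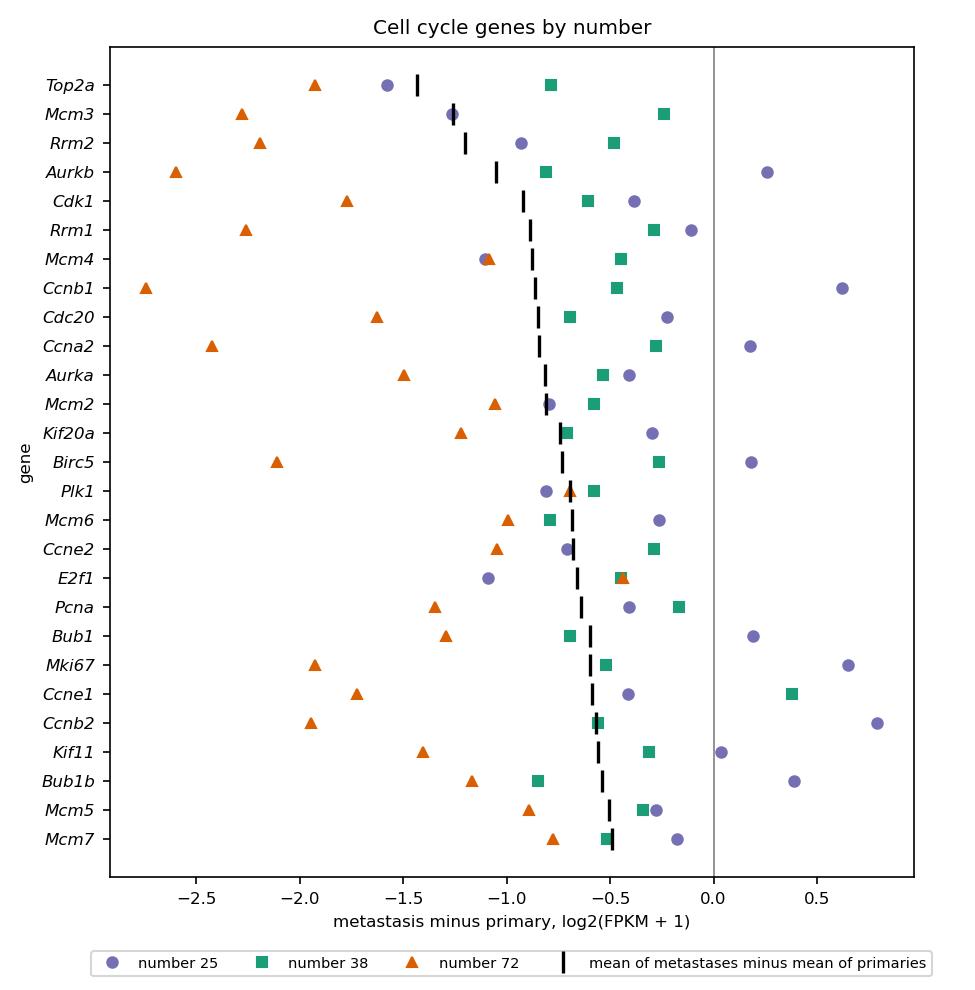
Difference between the metastasis and the primary of each number (symbols) and between the group means (black bars), on the log2(FPKM + 1) scale, for the 27 cell cycle genes. All black bars lie left of 0, the number 72 triangles lie farthest left for most genes, and the number 25 circles of Ccnb1, Ccnb2 and Mki67 lie right of 0.

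The promoters of Mcm3 and Top2a are shown as examples of this list, because the CCAAT box, the site of the factor NF-Y, recurs in promoters of cell cycle genes. The windows are RefSeq's (GRCm38.p6), 250 bases before the start, with CCAAT on either strand in capitals. Mcm3 is chr1:20820313-20820562 and Top2a is chr11:99024190-99024439, both on the minus strand.
Mcm3: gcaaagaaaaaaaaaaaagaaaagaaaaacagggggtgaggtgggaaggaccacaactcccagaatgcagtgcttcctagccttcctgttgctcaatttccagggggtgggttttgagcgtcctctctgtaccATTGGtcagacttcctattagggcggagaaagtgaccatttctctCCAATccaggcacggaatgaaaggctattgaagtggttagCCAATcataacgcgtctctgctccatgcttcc
Top2a: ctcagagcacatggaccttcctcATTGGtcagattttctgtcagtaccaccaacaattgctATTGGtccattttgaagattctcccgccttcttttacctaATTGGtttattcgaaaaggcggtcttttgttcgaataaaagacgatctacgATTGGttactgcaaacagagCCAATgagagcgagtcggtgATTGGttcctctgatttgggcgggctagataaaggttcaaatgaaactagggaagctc
Mcm3 has 3 matches and Top2a has 6. Of the 27 genes, 22 had a window in the table, and 19 of those (86.4%) held CCAAT, where 37.5% of all 27025 genes with a window did. The letters TTTGAA, the cell cycle genes homology region, were in 7 of the 22 (31.8%) and in 18.3% of all genes. These shares describe the promoters and not the samples.

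Hypoxia and glycolysis genes and interferon-induced genes differed by number, with no common direction. Of 16 tested hypoxia and glycolysis genes, 3 had a higher and 13 a lower mean, none separated the groups, and the medians were -1.01, -0.57 and 0.47 in numbers 25, 38 and 72. Car9, a carbonic anhydrase and a marker of low oxygen, had 14.5, 15.9 and 118 FPKM in the metastases, against 50.6, 139 and 94.0 FPKM in the primaries. Slc2a1, the glucose transporter GLUT1, had 32.2, 43.04 and 248.7 FPKM in the metastases, against 96.7, 86.2 and 97.5 FPKM in the primaries, so metastasis 72 was the highest of all 6. Of 20 tested interferon-induced genes, 12 had a higher and 8 a lower mean, and the medians were -1.60, 1.29 and 0.75. Gbp2, a GTPase induced by interferon gamma, had 2.201, 347 and 123 FPKM in the metastases, against 156, 158 and 16.2 FPKM in the primaries. Within the first set of libraries 17 of the 20 were lower, where 7059 of all 13969 genes tested were. Within the second 19 of the 20 were higher, where 7111 of all genes tested were. The T cell list was low in the same libraries, at a summed 2.85, 189 and 74.7 FPKM in the metastases, against 105, 101 and 12.5 FPKM in the primaries, with 12 of 12 markers at 1 FPKM or more in each library except metastasis 25 (1 of 12; Cd3g and Cd5 listed at 0) and primary 72 (5 of 12). Its part in these values was not tested.

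Mesenchymal regulators and p53 targets varied around 0. Of 12 mesenchymal and epithelial to mesenchymal transition genes, 7 had a higher and 5 a lower mean, and Twist1, a transcription factor of that transition, was the one below in all 3 metastases, at 28.5, 26.2 and 29.3 FPKM in the metastases, against 31.6, 34.3 and 38.2 FPKM in the primaries. Vim, the intermediate filament of mesenchymal cells, had 5498, 1443 and 3330 FPKM in the metastases, against 2511, 2643 and 3079 FPKM in the primaries. Of 14 p53 targets, 8 had a higher and 6 a lower mean. Trp53 had 24.3, 25.3 and 45.3 FPKM in the metastases, against 54.5, 35.2 and 22.4 FPKM in the primaries. For Trp53 primary 25 was the highest and primary 72 the lowest. Cdkn2a, the gene of the Ink4a locus, did not reach the filter, with 0, 0.47 and 3.35 FPKM in the metastases, against 1.29, 0.93 and 0.10 FPKM in the primaries, and it was listed at 0 in all 4 libraries of numbers 35 and 36. Its highest value was in metastasis 72. Myc had 71.3, 26.8 and 52.3 FPKM in the metastases, against 35.9, 35.0 and 29.2 FPKM in the primaries. Smad4 had 36.9, 18.4 and 33.4 FPKM in the metastases, against 24.9, 20.3 and 23.1 FPKM in the primaries. The groups overlapped for each of these last 4 genes.

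**Figure D4:**
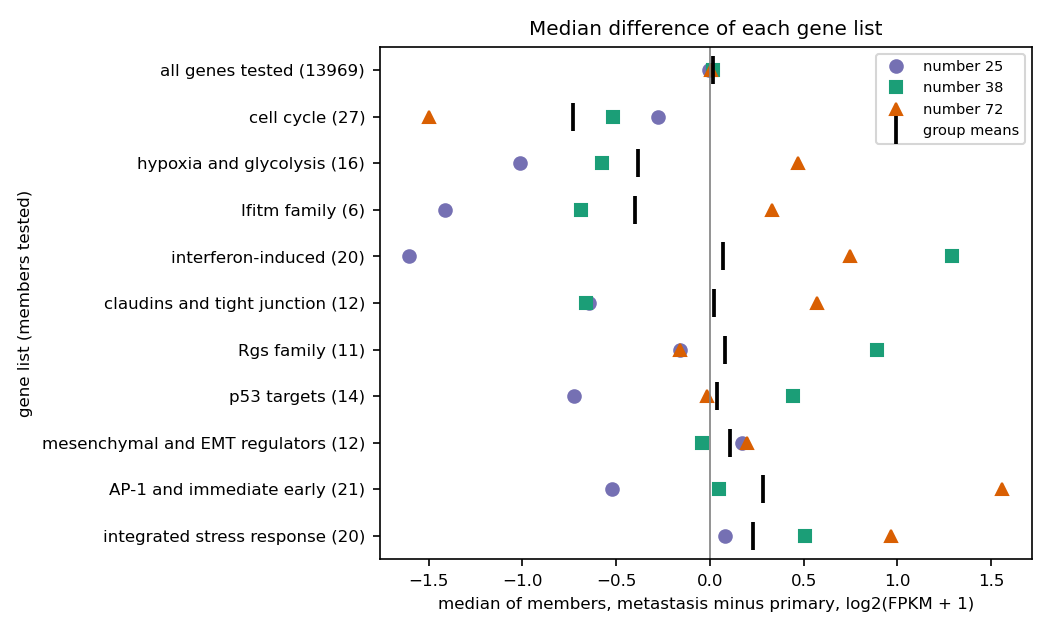
Median over the tested members of each gene list of the difference between the metastasis and the primary of number 25, 38 or 72 (symbols), and of the difference of the group means (black bars), on the log2(FPKM + 1) scale. The cell cycle list has all 3 symbols left of 0, whereas the interferon-induced, hypoxia and immediate early lists have symbols on both sides.

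Of 12 ductal epithelial markers, 10 had their lowest value of the 6 libraries in metastasis 38, and Krt7 and Muc1 had theirs in primary 72. Krt8, a keratin of simple epithelium, had 161, 16.3 and 141 FPKM in the metastases, against 260, 131 and 325 FPKM in the primaries. Its pseudogene Krt8-ps, at 80.2, 7.70 and 81.6 FPKM in the metastases, against 114, 87.1 and 133 FPKM in the primaries, was among the separated genes and is uncertain, because reads of the gene and its copy may have been split between them. In both keratin entries metastasis 38 was the lowest of the 6 libraries. Epcam, an epithelial adhesion molecule, had 8.55, 0.86 and 15.2 FPKM in the metastases, against 14.0, 8.23 and 2.27 FPKM in the primaries. Cdh1, the gene of E-cadherin, had 6.45, 1.90 and 8.71 FPKM in the metastases, against 6.97, 3.69 and 2.76 FPKM in the primaries. Epcam and Cdh1 were below 1 FPKM in all 4 libraries of numbers 35 and 36.

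Beyond the 4 genes, several of the named higher genes were near 0 in numbers 35 and 36. Meg3 and Rian, maternally expressed long non-coding RNAs of the same imprinted locus on chromosome 12, were the clearest. Meg3 had 132, 112 and 78.6 FPKM in the metastases, against 67.2, 10.4 and 26.5 FPKM in the primaries. Rian had 32.7, 43.3 and 17.6 FPKM in the metastases, against 11.5, 5.46 and 8.82 FPKM in the primaries. Meg3 had at most 0.15 FPKM in numbers 35 and 36, and Rian was lower still. Serping1, the complement C1 inhibitor, had 196, 284 and 229 FPKM in the metastases, against 131, 45.5 and 127 FPKM in the primaries, and at most 0.16 FPKM in numbers 35 and 36. The part of host cells in these values was not tested. Palmd, Clec4d (a C-type lectin of myeloid cells), Cxcl1 (a neutrophil attractant) and Ctse (cathepsin E) were also below 1 FPKM in all 4 of those libraries. Cxcl1 was far highest in 1 library, with 82.2, 2.74 and 4.12 FPKM in the metastases, against 2.67, 1.14 and 2.30 FPKM in the primaries. Lbp, the lipopolysaccharide-binding protein of the liver's acute phase, was also highest in metastasis 25. It had 64.3, 17.7 and 14.4 FPKM in the metastases, against 11.95, 3.18 and 12.07 FPKM in the primaries. Unlike the genes above, Lbp was not near 0 in numbers 35 and 36, at 2.48 to 7.25 FPKM.

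Other higher genes were detected in some or all libraries of numbers 35 and 36. Lmo7, a gene of cell adhesion and the cytoskeleton, had 26.8, 12.8 and 17.9 FPKM in the metastases, against 8.999, 8.02 and 8.69 FPKM in the primaries, and 46.3 to 58.8 FPKM in numbers 35 and 36. Shc2, a signalling adaptor, had 11.8, 7.41 and 7.11 FPKM in the metastases, against 3.93, 2.43 and 2.04 FPKM in the primaries. In numbers 35 and 36 Shc2 had 0.46 and 0.53 FPKM in the metastases, against 8.15 and 1.07 FPKM in the primaries, the opposite order. Chchd10, a small mitochondrial protein gene, had the widest spread, with 107, 20.6 and 8.94 FPKM in the metastases, against 4.32, 0.88 and 7.73 FPKM in the primaries. Podxl2, Fxyd1 (a regulator of the sodium pump) and the mitochondrial ribosomal RNA gene mt-Rnr2 were likewise separated and highest in metastasis 25, and Podxl2 was below 1 FPKM in 3 of the 4 libraries of numbers 35 and 36. The mt-Rnr2 value is uncertain, because another mitochondrial gene, mt-Co1, was listed at 0 in metastasis 25. Of all 264 genes above in the metastases, 192 (72.7%) had at least 1 FPKM in each library of numbers 35 and 36 and 43 (16.3%) were below 1 FPKM in all 4, where 79.5% and 14.4% of all genes tested were.

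Of the 290 genes below in the metastases, 258 (89.0%) had at least 1 FPKM in each library of numbers 35 and 36, where 79.5% of all genes tested did. Another 18 (6.21%) were below 1 FPKM in all 4, where 14.4% of all genes tested were. Msx3, a homeobox gene, had 6.14, 4.65 and 7.07 FPKM in the metastases, against 16.0, 17.9 and 12.8 FPKM in the primaries. Axin2 and Apcdd1, both targets and brakes of Wnt signalling, were also among these genes, and no list of Wnt genes was examined. Axin2 had 0.83, 3.804 and 7.92 FPKM in the metastases, against 10.3, 10.6 and 12.5 FPKM in the primaries. Apcdd1 had 0.95, 3.36 and 6.21 FPKM in the metastases, against 6.36, 10.3 and 13.8 FPKM in the primaries, so metastasis 72 and primary 25 nearly met. The levels of Axin2 and Apcdd1 were unlike in numbers 35 and 36, at 0.42 to 1.61 FPKM and 10.8 to 41.1 FPKM. Rpp25, a subunit of ribonuclease P, had 0.88, 2.18 and 4.21 FPKM in the metastases, against 8.54, 11.1 and 6.61 FPKM in the primaries. Fam132b, a secreted hormone gene, had 0.76, 2.42 and 4.43 FPKM in the metastases, against 10.8, 13.7 and 7.15 FPKM in the primaries. Cldn6, Rpp25, Fam132b, Axin2 and Apcdd1 thus all had metastasis 25 lowest and metastasis 72 nearest to the primaries.

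Suv39h1, a histone H3 lysine methyltransferase, had 20.8, 17.5 and 12.6 FPKM in the metastases, against 30.4, 34.9 and 38.2 FPKM in the primaries. Aunip, a DNA repair gene, had 3.30, 4.58 and 1.73 FPKM in the metastases, against 6.67, 10.7 and 8.04 FPKM in the primaries. Ighg1, an immunoglobulin heavy chain gene, had 0.67, 3.31 and 1.62 FPKM in the metastases, against 40.3, 9.51 and 8.35 FPKM in the primaries, and was near 0 in numbers 35 and 36. Rnase2a, a ribonuclease gene of eosinophils, was listed at 0 in metastasis 25 and throughout numbers 35 and 36.

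Taken number by number, the differences were large but did not repeat. In number 25, 1847 genes were higher and 1980 lower by at least 1 on the log2(FPKM + 1) scale, in number 38 there were 1199 and 449, and in number 72 there were 1537 and 1747. Across the 13969 genes, which are not independent, the differences of numbers 25 and 72 had a Pearson r of -0.42, those of numbers 25 and 38 of 0.07 and those of numbers 38 and 72 of -0.13. The libraries share depth and host content, so these are descriptions. Only 6 genes were higher and 13 lower by at least 1 in all 3 numbers, among them Atf3 and Shc2 higher and Cldn6, Ighg1 and Apcdd1 lower. The complement gene C3, chosen here after its values were seen, was one of the 6.

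The leading genes of numbers 25 and 38 were largely genes of other tissues. In number 25 the highest differences were Tat, Igfbp1, Hamp, Alb and Fgg, all liver genes, with Alb (albumin) at 9850 FPKM in metastasis 25 against 13.2 FPKM in primary 25. The lowest were mt-Co1, Ins2, Ighm, Igkc and Ctrb1. Ins2, an insulin gene of islet beta cells, had 5.69 FPKM in metastasis 25 against 5163 FPKM in primary 25. The mitochondrial gene mt-Co1, which all cells use, was listed at 0 in metastasis 25 against 5058 FPKM in primary 25. Metastasis 25 listed 11 genes at 0 that had at least 1 FPKM in every other library, the most of the 6 libraries. In number 38 the highest were Car3, Mylpf, Tnnc2, Tnnt3 and Csrp3, genes of skeletal muscle. Mylpf, a myosin light chain, had 1757 FPKM in metastasis 38 against 0.84 FPKM in primary 38, and in number 72 the same gene was among the lowest, at 0.56 FPKM in metastasis 72 against 143 FPKM in primary 72. The lowest in number 38 were Mir8094, Stra6, Wfdc2, Mmp7 and Snora16a. Wfdc2, a secreted protease inhibitor of epithelium, had 4.47 FPKM in metastasis 38 against 74.7 FPKM in primary 38. In number 72 the highest were Rps21, Rpl38, Usmg5, Dmbt1 and Atp5k and the lowest included Rnu3a, Mir719, Snora68 and Snord22. Of these, Rps21, Rpl38, Usmg5, Atp5k, Mir719 and Snora68 are among the 21 genes that set metastasis 72, with metastasis 25 and primary 25, apart from the other libraries.

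Marker lists of host cells were summed in each library. The 15 hepatocyte markers summed to 29745, 14.1 and 516 FPKM in the metastases, against 88.5, 6.87 and 2671 FPKM in the primaries. Metastasis 38, labelled a liver metastasis, had 1 of the 15 at 1 FPKM or more and Alb at 0.16 FPKM, with Apoa2 and Cps1 listed at 0, while primary 72 had all 15. The 12 skeletal muscle markers summed to 25.8, 9805 and 15.7 FPKM in the metastases, against 14.8, 11.5 and 758 FPKM in the primaries. Each of the 12 markers in primary 72 stood at 5.65 to 10.3% of its level in metastasis 38, with a median of 7.98%. Hepatocyte markers in primary 72 stood at a median of 7.81% of their level in metastasis 25, from 4.43 to 27.7%. The 9 erythroid markers found in the table summed to 29124, 132 and 166 FPKM in the metastases, against 876, 16.4 and 648 FPKM in the primaries. For hepatocyte, muscle and erythroid markers alike the groups overlapped. Neutrophil markers summed to 11745 FPKM in metastasis 25 and to at most 81.3 FPKM in the other 5 libraries. Islet markers summed to 6427 FPKM and B and plasma cell markers to 2572 FPKM in primary 25, which had all 11 B and plasma cell markers at 1 FPKM or more. In numbers 35 and 36 the hepatocyte sum was at most 2.21 FPKM and the macrophage sum at most 44.0 FPKM, against at least 1676 FPKM in the 6 libraries, although all 10 carry the label of cultured lines. Of the 1199 genes higher by at least 1 in number 38, 57.7% were below 1 FPKM in all 4 libraries of numbers 35 and 36, as were 24.9% in number 25 and 25.4% in number 72, where 14.4% of all genes tested were. Of the genes lower by at least 1, 33.8% in number 25, 20.5% in number 38 and 19.8% in number 72 were below 1 FPKM in those 4 libraries.

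**Figure D5:**
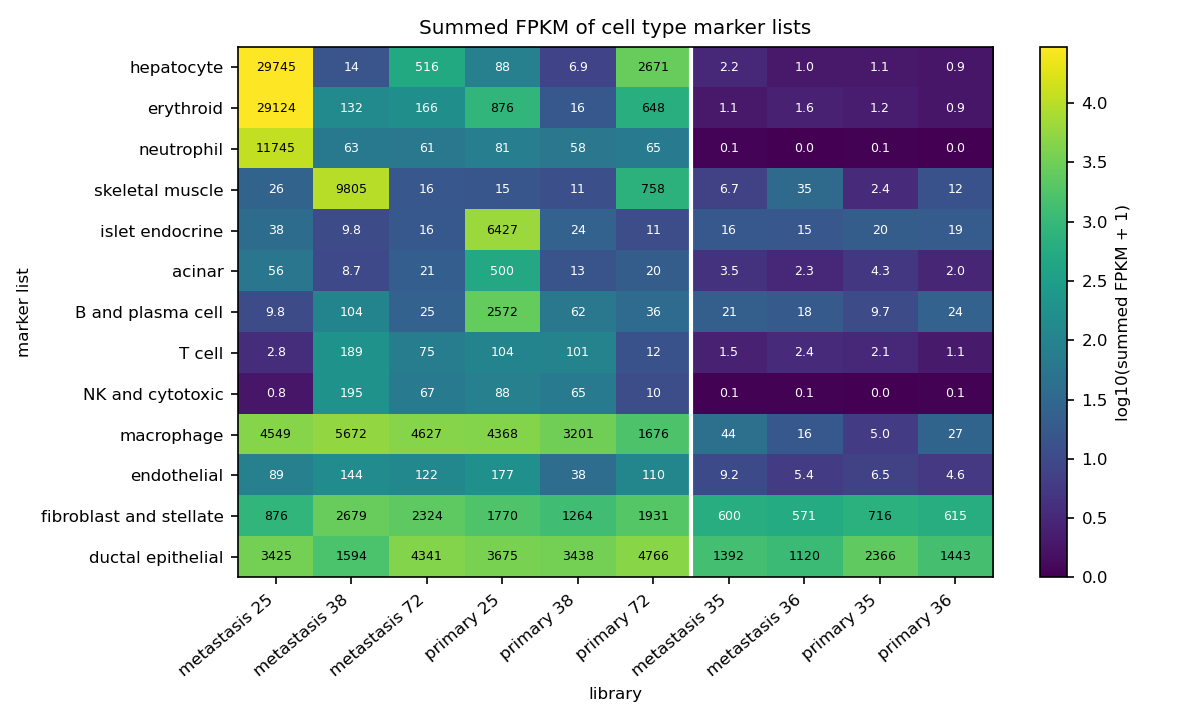
Summed FPKM of 13 marker lists in each library (numbers in the cells; colour is log10 of the sum + 1), with numbers 35 and 36 right of the white line. Hepatocyte, erythroid and neutrophil sums peak in metastasis 25, the muscle sum in metastasis 38, and the islet, acinar and B and plasma cell sums in primary 25.

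Whether the difference between metastasis and primary was the same in both groups of numbers was tested over all 10 libraries, as the difference in numbers 25, 38 and 72 minus that in numbers 35 and 36. The fit used a common spread for all 10 libraries, although the libraries of numbers 35 and 36 had a smaller one, which limits this test. With limma, 0 of 13969 genes were called (0%), no adjusted p was below 0.9999, and 127 genes (0.909%) had p under 0.05 before adjustment. For Atf3, Cldn6, Rgs16 and Ifitm1, therefore, nothing was shown to be particular to numbers 25, 38 and 72.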

How the data were processed

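Bulk poly(A)-selected RNA was sequenced from the samples described above. The authors' deposited table holds FPKM values for 48516 genes, with 28 lines of no gene identifier left out. Salmon, edgeR and mm8 are named in the submitters' processing notes, with no version or role. Gene loci of GENCODE M21 (GRCm38) lie inside the deposited loci for 99.97% of shared identifiers and equal them for 62.1%. Coordinates are given on that build, counted from 1. The gene spans given are the deposited loci, which can be wider than the gene. Depth was estimated from the steps between low values of genes at least 3000 bases long (tolerance 0.05 of a fragment). Genes reaching 1 FPKM in 3 or more of the 6 libraries were fitted with limma 3.58.1 (R 4.3.3), with an intensity trend and no block, on log2(FPKM + 1), a scale that understates changes of low genes. Benjamini-Hochberg adjustment ran over all of them. Genes were named by fixed rules: the 4 given genes, the 10 smallest p in each direction, the 10 largest separated differences in each direction, list members with large differences, and the 5 leading genes per number, leaving out unnamed gene models. A few genes within these counts are not reported here by name. The members, genes and lists were chosen with earlier results of these data known. Other pseudocounts, filters, scalings, blocks, weights and left-out libraries were tried. An exact 0 can be a failed estimate.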

Additional observations from a re-analysis of the deposited data

How the results depend on the processing

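Calls stayed at 0 in each direction under all 24 alternatives, with smallest adjusted p values down to 0.865 with array weights and 0.902 without metastasis 38, and the interaction stayed at 0 calls under its alternatives. At an unadjusted p under 0.05 the main 131 genes became 40 to 545 when libraries were left out, the lowest without primary 38 and the highest without metastasis 38, and 597 with array weights, and the cause was not tested. Over all settings 24 to 27 of the 27 cell cycle genes had a lower mean, while the count moved from 5 to 14 of 16 for hypoxia, 2 to 7 of 11 for Rgs, 3 to 10 of 12 for claudin and tight junction, 1 to 18 of 20 for interferon-induced, 1 to 14 of 21 for immediate early, 3 to 10 of 20 for integrated stress response and 3 to 10 of 14 for p53 target genes. The immediate early median was 0.28 in the main table and ran from -0.23 to 0.79 when libraries were left out. Genes above in all metastases numbered 264 in the main table, 475 with no filter, 166 with at least 5 FPKM in at least 3, 157 with scaling to genes outside the cell type lists, and 2306 without metastasis 38 and primary 72. Genes below numbered 290, then 497 with no filter and 2569 without those libraries. The filters test other numbers of genes, and fewer libraries are easier to separate. Leaving out libraries in turn gave 477 to 2297 above and 447 to 2073 below, with 1182 and 1289 without metastasis 38, 1868 and 1939 without number 25, and 1464 and 1557 without number 38. Scaling to genes outside the lists moved the median of all genes by -0.133, and the share above among separated genes was 28.6%, against 47.7% as deposited, 41.3% with median ratio scaling and 38.4% with quantile normalization. The deviations from the group means correlated at -0.10, 0.50 and -0.48 in numbers 25, 38 and 72. The 0.50 of number 38 was the highest value of any metastasis with any primary, and metastasis 25 matched primary 72 best (0.49). Deviations in groups of 3 sum to 0 and carry the host cell content. These values therefore cannot tell whether a shared number pairs the samples. The replicate block gave 0 calls, with 165 genes at an unadjusted p under 0.05 as a fixed effect and 125 as a random effect. The terms for the sets of libraries and the pair of libraries with muscle transcripts were chosen after seeing the data, and with a term for the sets 121 genes were at an unadjusted p under 0.05. The lower depth of metastasis 25 limits its low values, and 3 libraries a group limit every comparison.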
